A study of Homo sapiens with 12 samples.

Results

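The genes of cholesterol synthesis and its control by SREBP2 described here, 8 in all, were followed through total and polysome-associated RNA of HEK293T cells, a human embryonic kidney cell line. They were chosen by name and comprised 6 enzymes (HMGCS1, IDI1, FDPS, FDFT1, SQLE and DHCR7) and 2 regulators (SREBF2 and INSIG1). All 8 were found among the 59385 gene names of the count table, and all 8 were among the 18166 genes with enough reads to be tested. Cells grown in DMEM with fetal bovine serum carried a Dox-inducible shRNA, which was either non-silencing (shCtrl) or directed against PRRC2B, an RNA-binding protein (shPRRC2B). Each shRNA was studied in 1 stable line that grew from a single clone, so an effect of the knockdown and a difference between the clones cannot be told apart. Both lines carried the same kind of inducible vector. Total RNA and RNA combined from the polysome-bearing bottom fractions of a gradient (polysome RNA) were sequenced after poly(A) enrichment in 3 biological replicates each, which gave 4 groups and 12 libraries. The question was whether translation efficiency (TE), the polysome RNA of a gene relative to its total RNA, differed between the lines.

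Cells build cholesterol from acetyl-CoA through mevalonate, isoprenoid diphosphates, squalene and a series of sterols. The membrane-bound transcription factor SREBP2, the product of SREBF2, turns on nearly all genes of this route when sterols in the endoplasmic reticulum run low. SCAP escorts SREBP2 to the Golgi, where the proteases encoded by MBTPS1 and MBTPS2 release its active part, and INSIG1 and INSIG2 hold the SCAP complex back when sterols are plentiful. Released SREBP2 binds sterol regulatory elements in promoters, commonly together with the factor NF-Y, which binds CCAAT boxes.

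The promoters of FDFT1 and SQLE are not reported here. Promoter sequences of the other 6 of the 8 genes were taken from RefSeq (GRCh38.p14), each from 250 bases before to 50 bases after the start site. They are shown because shared elements of SREBP2 targets lie there. Whether these elements bear on the total RNA changes given below was not tested. Both strands were searched for the core of the sterol regulatory element (TCACNCCAC), for the NF-Y box (CCAAT, which reads ATTGG on the other strand) and for the E-box (CACGTG). The NF-Y box was present in 6 of 6 of these promoters, against 34.6% of all 35116 promoters of the same length. The sterol regulatory element core was found in that of SREBF2 alone, against 1.13% of all promoters, and the E-box in that of INSIG1 alone, against 7.26%. The matches did not overlap. A match is a string of letters in this window and not a measured binding site. The lack of a match to these exact letters does not show that a promoter has no such element. Each stretch below runs 5′ to 3′ on the strand of the gene, ends upstream of the start site, and has the matched motifs in capitals, with coordinates on GRCh38.
HMGCS1 (chr5:43313498-43313577, minus strand): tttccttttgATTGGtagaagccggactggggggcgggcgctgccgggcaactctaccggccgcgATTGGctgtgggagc
IDI1 (chr10:1049222-1049344, minus strand): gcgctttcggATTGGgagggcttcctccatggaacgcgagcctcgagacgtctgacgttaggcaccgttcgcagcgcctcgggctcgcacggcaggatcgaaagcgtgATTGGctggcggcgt
FDPS (chr1:155308680-155308829, plus strand): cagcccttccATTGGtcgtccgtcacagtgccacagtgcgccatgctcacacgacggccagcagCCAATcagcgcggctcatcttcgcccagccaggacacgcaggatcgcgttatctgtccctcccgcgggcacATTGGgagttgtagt
DHCR7 (chr11:71448427-71448497, minus strand): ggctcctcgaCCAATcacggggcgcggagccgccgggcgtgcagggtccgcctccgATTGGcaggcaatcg
SREBF2 (chr22:41832962-41833013, plus strand): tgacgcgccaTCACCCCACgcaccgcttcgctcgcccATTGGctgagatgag
INSIG1 (chr7:155297698-155297838, plus strand): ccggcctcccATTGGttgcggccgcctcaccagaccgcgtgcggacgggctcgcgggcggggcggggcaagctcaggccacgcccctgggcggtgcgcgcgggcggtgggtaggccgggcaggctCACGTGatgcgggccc
FDPS held 3 NF-Y boxes, HMGCS1, IDI1 and DHCR7 held 2 each, and SREBF2 and INSIG1 held 1 each. In SREBF2 the sterol regulatory element core began 133 bases before the start site and the NF-Y box 106 bases before it.

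The libraries held 9855734 to 20837542 counts. PRRC2B itself was at 281 ± 28.7 CPM (reads relative to the TMM-scaled library size; SD, n = 3) in shCtrl total RNA and at 100.3 ± 2.32 in shPRRC2B total RNA (0.357 of control). Polysome libraries varied more among themselves than total libraries, and the polysome library of replicate 1 stood apart from the other 2 in both lines, with a chi-square per degree of freedom of 35.9 to 70.2 against them where the other polysome pairs gave 13.3 and 20.9. By mean correlation of log2 CPM with its own group, polysome replicate 1 differed little from replicates 2 and 3. The values were 0.956, 0.962 and 0.959 for replicates 1 to 3 in shCtrl and 0.974, 0.976 and 0.975 in shPRRC2B. Polysome and TE changes of the 8 genes are given below with and without both replicate 1 polysome libraries, a comparison added after the replicates had been compared. Of 8 markers of HEK293T cells, 7 were detected in every library and LHX1 reached at most 7 counts, while PTPRC, CD3E, ALB and PECAM1, markers of blood, liver and endothelial cells, reached at most 5 counts and the fibroblast and epithelial markers COL1A1 and EPCAM at most 869 and 78. The thresholds for a call were an adjusted p under 0.05 (edgeR's quasi-likelihood test, Benjamini-Hochberg over all genes tested) and a log2 change above 0.5 or below -0.5.

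For TE, 2 of the 8 genes were called, in opposite directions. IDI1, which makes the reactive isoprenoid unit, rose 2.15-fold in TE in shPRRC2B cells (log2 1.10 ± 0.22, SE), and SREBF2 fell to 0.567 of control (log2 -0.82 ± 0.27). Over all genes tested, TE was called higher for 10.7% and lower for 16.4%, so 1 of 8 in each direction lies near the background. In total RNA INSIG1 alone was called, lower by 0.76 on the log2 scale, against 14.1% of all genes called lower and 14.9% called higher. In polysome RNA IDI1 was called higher, against 18.4% of all genes, and SQLE and SREBF2 lower, against 21.4%. The median TE change of the 8 genes was -0.01 on the log2 scale and that of all genes -0.03. Of all 18166 genes tested, 1935 were called higher and 2981 lower in TE. Without both replicate 1 polysome libraries it was 2806 and 4145 of 18813. More calls are thus found among all genes in that setting, and the TE calls given for it below are to be read beside these counts.

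Total RNA of the 8 genes leaned one way. All 8 log2 changes of total RNA were below 0, from -0.09 for HMGCS1 to -0.76 for INSIG1, with a median of -0.30 against 0.04 for all genes tested, and they stayed below 0 in each alternative run for total RNA. For 7 of the 8 genes, all but HMGCS1, the 3 shPRRC2B total libraries lay below the 3 shCtrl total libraries, a pattern shown by 28.8% of all genes tested. FDPS and SQLE passed the adjusted p but not the minimum change (log2 -0.44 and -0.38, adjusted p = 0.0155 and 0.0151). The 13 other enzymes of sterol synthesis described below did not share the lean. Their total RNA changes were below 0 for 6 of 13, with a median of 0.04. In polysome RNA the median of the 8 genes was -0.32 against -0.01 for all genes. For SQLE and SREBF2 all shPRRC2B polysome libraries lay below all shCtrl polysome libraries, as for 21.5% of all genes. Counts are relative within a library, so fewer transcripts per cell and a larger pool of other transcripts cannot be told apart, nor can fewer cells of one kind and less RNA per cell.

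**Figure D1:**
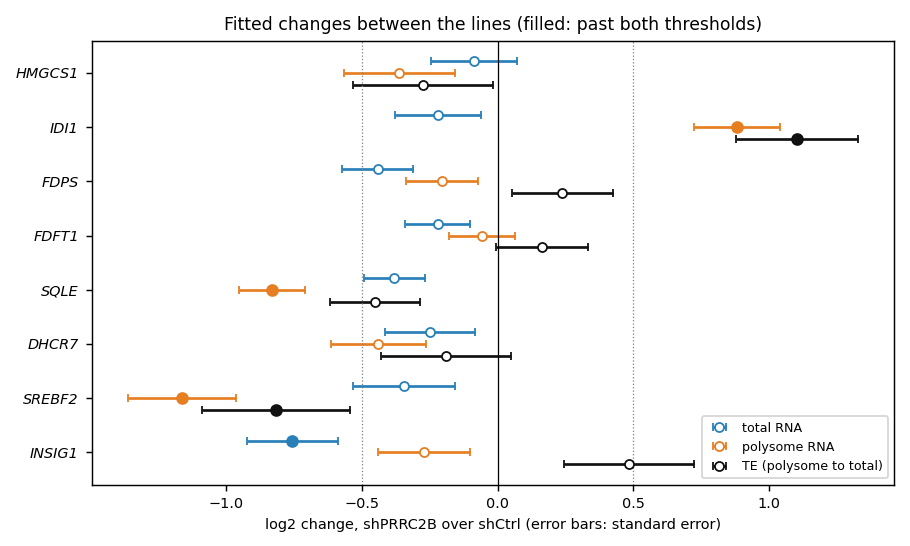
Fitted log2 changes (shPRRC2B over shCtrl) of the 8 genes in total RNA, polysome RNA and TE; points are estimates, bars standard errors, filled points passed both thresholds and dotted lines mark -0.5 and 0.5. All total RNA changes sit left of 0, while TE runs from -0.82 for SREBF2 to 1.10 for IDI1.

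HMGCS1, on chromosome 5 (43287470 to 43313412, minus strand, GRCh38), encodes the cytosolic HMG-CoA synthase, which joins acetyl units on the way to mevalonate. Its total RNA was 84.0, 75.1 and 92.6 CPM in shCtrl replicates 1 to 3 and 76.3, 79.6 and 81.0 CPM in shPRRC2B. In polysome RNA HMGCS1 was at 9.74, 6.73 and 8.1 CPM in shCtrl and 8.68, 4.97 and 5.42 CPM in shPRRC2B. The groups overlapped in both fractions, and the polysome levels rested on 52 to 104 counts per library. The log2 change was -0.09 ± 0.16 in total RNA (adjusted p = 0.704), -0.36 ± 0.21 in polysome RNA (adjusted p = 0.163) and -0.28 ± 0.26 in TE (adjusted p = 0.46). Without shPRRC2B polysome replicate 1 its polysome RNA was called lower (log2 -0.77), as it was without both replicate 1 polysome libraries (-0.61), where TE was at -0.47 and not called. Part of its exons, 37.7% of their bases, is overlapped by an lncRNA on the other strand (ENSG00000261604), and the counting did not state the use of strand.

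IDI1, on chromosome 10 (1039419 to 1049119, minus strand), encodes isopentenyl-diphosphate isomerase, which turns isopentenyl diphosphate into its reactive isomer. Its total RNA was 85.0, 80.1 and 86.4 CPM in shCtrl and 67.5, 78.6 and 69.6 CPM in shPRRC2B. On polysomes it was at 131, 90.1 and 80.9 CPM in shCtrl and 157, 197 and 204 CPM in shPRRC2B. Thus the shPRRC2B libraries were the lower ones in total RNA and the higher ones in polysome RNA, with no overlap in either fraction. Polysome RNA rose 1.84-fold (log2 0.88 ± 0.16, adjusted p = 0.000256), total RNA was at log2 -0.22 ± 0.16 (adjusted p = 0.298), and the TE rise had an adjusted p of 0.00172. The highest shCtrl polysome library and the lowest shPRRC2B one were both replicate 1. Without these libraries the TE change was 1.40 on the log2 scale and the polysome change 1.13. IDI1 stayed called for TE and for polysome RNA in every alternative, with TE changes of 0.91 to 1.40. The lncRNA IDI2-AS1 on the other strand overlaps 15% of its exon bases.

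FDPS, on chromosome 1 (155308866 to 155320665, plus strand), encodes farnesyl diphosphate synthase, whose product feeds both squalene and protein prenylation. In total RNA it was at 79.6, 82.4 and 70.4 CPM in shCtrl and at 57.6, 55.8 and 57.7 CPM in shPRRC2B, which did not overlap. In polysome RNA it was at 112, 117 and 109 CPM in shCtrl and at 77.0, 112 and 104 CPM in shPRRC2B, where the groups overlapped and shPRRC2B replicate 1 was the low one. The TE change was 0.24 ± 0.19 on the log2 scale (adjusted p = 0.368), and the polysome change -0.20 ± 0.13 (adjusted p = 0.226). Total RNA was called lower with library totals in place of TMM (log2 -0.52) and without shCtrl total replicate 3 (-0.51). Leaving out both replicate 1 polysome libraries gave 0.33 in TE and -0.16 in polysome RNA, neither called. The lncRNA RUSC1-AS1 overlaps 18.6% of its exon bases on the other strand.

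FDFT1 and SQLE, both on chromosome 8 (11802741 to 11839298 and 124998505 to 125022283, plus strand), encode squalene synthase and squalene epoxidase, the first enzyme given over to sterols and a rate-limiting oxygen-dependent step after it. FDFT1 total RNA was 115, 117 and 114 CPM in shCtrl and 95.0, 106 and 95.7 CPM in shPRRC2B. Its polysome RNA was 80.5, 106 and 89.8 CPM in shCtrl and 82.5, 91.9 and 90.9 CPM in shPRRC2B. Total levels did not overlap and polysome levels did, and none of the FDFT1 changes was called (log2 -0.22 ± 0.12 in total RNA, -0.06 ± 0.12 in polysome RNA and 0.16 ± 0.17 in TE, adjusted p = 0.163, 0.728 and 0.513). Nor was any called without both replicate 1 polysome libraries, where polysome RNA was at -0.20 and TE at 0.07. An lncRNA on the other strand (ENSG00000255046) overlaps 4.27% of the FDFT1 exon bases.

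SQLE total RNA was 144, 141 and 141 CPM in shCtrl and 112, 109.6 and 106 CPM in shPRRC2B. Polysome RNA was at 44.8, 38.1 and 43.1 CPM in shCtrl and 20.7, 25.3 and 24.8 CPM in shPRRC2B. Both fractions were lower in every shPRRC2B library, and the gap was wider in polysome RNA, which fell to 0.562 of control (log2 -0.83 ± 0.12, adjusted p = 3.79e-05). The TE change of -0.45 ± 0.17 missed both thresholds (adjusted p = 0.052). It was called lower without shCtrl polysome replicate 2 (-0.57), without shPRRC2B polysome replicate 2 (-0.53) and without shPRRC2B polysome replicate 3 (-0.53). With both replicate 1 polysome libraries left out, SQLE polysome RNA stayed called (-0.79) and TE did not pass (-0.36).

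DHCR7, on chromosome 11 (71434411 to 71448393, minus strand), encodes 7-dehydrocholesterol reductase, the last enzyme of one branch to cholesterol. Its total RNA was 131, 131 and 125 CPM in shCtrl and 112, 107 and 106 CPM in shPRRC2B. Its polysome RNA was 40.0, 52.8 and 55.3 CPM in shCtrl and 25.1, 45.4 and 38.8 CPM in shPRRC2B. Replicate 1 was the lowest polysome library of each line, and the 2 lines overlapped in this fraction. Polysome RNA passed the adjusted p but not the minimum change (log2 -0.44 ± 0.17, adjusted p = 0.0488), and TE was at -0.19 ± 0.24 (adjusted p = 0.596). Polysome RNA was called lower without shCtrl polysome replicate 1 (-0.67), without shPRRC2B polysome replicate 2 (-0.71), without shPRRC2B polysome replicate 3 (-0.58), with all genes of at least 1 count (-0.53) and with the dependence on transcript length removed together with a replicate block (-0.51). It was at -0.46 without both replicate 1 polysome libraries, with TE at -0.16, and neither was called.

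SREBF2, on chromosome 22 (41833105 to 41907305, plus strand), encodes SREBP2, the activator of this route. Its total RNA was 284, 308 and 270.4 CPM in shCtrl and 229.8, 224 and 225 CPM in shPRRC2B. In the polysome fraction SREBF2 was at 51.7, 89.8 and 97.2 CPM in shCtrl and 27.9, 44.9 and 33.8 CPM in shPRRC2B. The lines did not overlap in either fraction, although the lowest shCtrl polysome library, replicate 1, lay close to the highest shPRRC2B one. Polysome RNA fell to 0.447 of control (log2 -1.16 ± 0.20, adjusted p = 0.00016), total RNA was at log2 -0.34 ± 0.19 (adjusted p = 0.17), and the fall in TE had an adjusted p of 0.0336. Without both replicate 1 polysome libraries, where more of all genes were called in TE, its TE change was -0.95 (adjusted p = 9.32e-05). The polysome change of SREBF2 was then -1.35. The lncRNA SREBF2-AS1 overlaps 9.08% of its exon bases on the other strand.

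The polysome call of SREBF2 stayed in every alternative, with changes of -0.82 to -1.49, but its TE call did not. TE changes of -0.71 to -0.87 were no longer called when any of the 6 total libraries, shCtrl polysome replicate 2 or 3, or shPRRC2B polysome replicate 1 was left out (adjusted p = 0.0504 to 0.0753). When each library was freed of the dependence of its counts on transcript length, the TE change was -0.36 (adjusted p = 0.364). Leaving out shCtrl polysome replicate 1 or shPRRC2B polysome replicate 2 or 3 kept the call.

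INSIG1, on chromosome 7 (155297878 to 155310235, plus strand), encodes the endoplasmic reticulum protein that retains the SCAP complex, and is itself a target of SREBP2. Its total RNA was 246, 252 and 239 CPM in shCtrl and 133, 155 and 149 CPM in shPRRC2B. Its polysome RNA was 131, 146 and 146 CPM in shCtrl and 78.3, 149 and 123 CPM in shPRRC2B. Total RNA separated the lines by a wide margin, whereas in polysome RNA shPRRC2B replicate 2 lay above all shCtrl libraries and replicate 1 far below them. Total RNA fell to 0.592 of control (log2 -0.76 ± 0.17, adjusted p = 0.00229) and stayed called in every alternative. Polysome RNA was at -0.27 ± 0.17 (adjusted p = 0.207) and TE at 0.48 ± 0.24 (adjusted p = 0.144). TE was called higher without shPRRC2B polysome replicate 1 (0.64) or without both replicate 1 polysome libraries (0.60, with polysome RNA at -0.20), and polysome RNA was called lower without shPRRC2B polysome replicate 2 (-0.57).

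**Figure D2:**
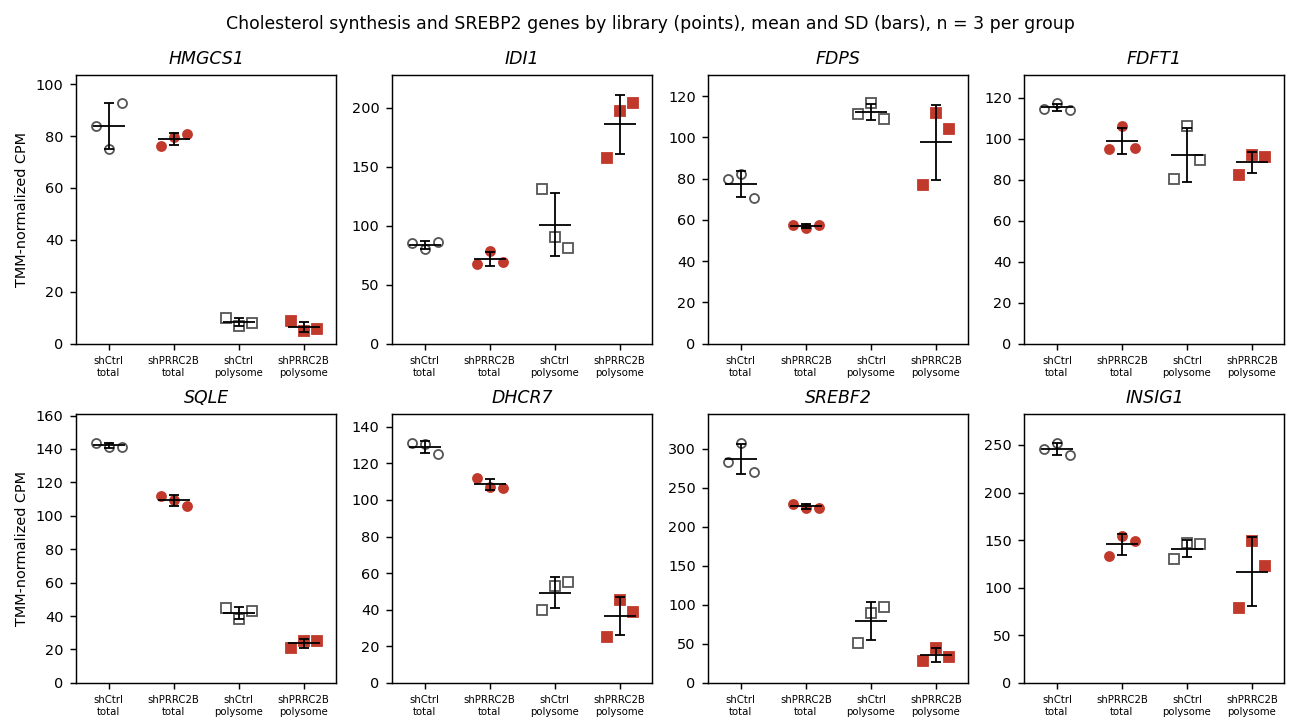
TMM-scaled CPM of each gene in the 12 libraries by group; points are libraries in the order of replicates 1 to 3, horizontal bars means and error bars SD (n = 3). INSIG1 falls from 239 to 252 CPM in shCtrl total RNA to 133 to 155 in shPRRC2B, IDI1 is higher and SREBF2 and SQLE are lower in shPRRC2B polysome RNA, and HMGCS1 stays under 10 CPM in polysome RNA.

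The 8 mRNAs differed widely in how much of them was found on polysomes. Scaling over both fractions sets the level of such ratios, so they are given relative to the median of all genes tested, which was -0.22 on the log2 scale in both lines. In shCtrl cells FDPS (0.76) and IDI1 (0.49) lay above that median and FDFT1 (-0.10) and INSIG1 (-0.58) below it. DHCR7 (-1.16), SQLE (-1.53) and SREBF2 (-1.63) lay further below, and HMGCS1 (-3.13) was so low that 6.28% of all genes had a lower ratio. In shPRRC2B cells IDI1 (1.59) stood above FDPS (0.99), INSIG1 was at -0.10, SREBF2 at -2.45 and HMGCS1 at -3.41. These distances from the median moved by at most 0.01 under the other 3 scalings. That follows from subtracting the median, since a scaling shifts nearly all ratios alike, and is no test of the levels. The ratios themselves shifted with the median, and those of FDPS in both lines and of IDI1 in shCtrl cells changed sign. FDPS has the shortest canonical transcript (1417 nucleotides) and HMGCS1 the longest (5350), followed by SREBF2 (5237). With that dependence on length (the length trend) removed, the distances in shCtrl cells were -0.73 for FDPS, -0.72 for SREBF2 and -2.19 for HMGCS1, and HMGCS1 was still the lowest of the 8. In shPRRC2B cells HMGCS1 (-2.03) and SQLE (-1.98) then lay close together at the low end.

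**Figure D3:**
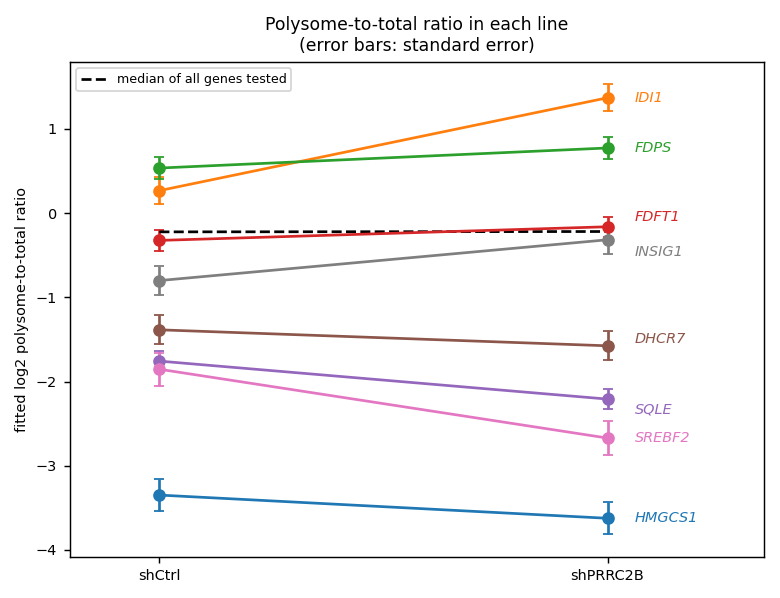
Fitted log2 polysome-to-total ratio of the 8 genes in each line, with standard errors as bars and the median of all genes tested as a dashed line. IDI1 climbs from 0.27 to 1.37, SREBF2 drops from -1.85 to -2.67, and HMGCS1 lies lowest in both lines at -3.35 and -3.62.

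Levels were ordered per kb of canonical transcript. In shCtrl total RNA INSIG1 led with 84.6 ± 2.23 CPM per kb and did not overlap with the next gene. FDFT1, SREBF2, FDPS, DHCR7 and SQLE followed between 56.7 and 48.0 CPM per kb, and each overlapped with its neighbour in that order. IDI1 (30.6 ± 1.22) and HMGCS1 (15.7 ± 1.63) came last and were apart from the others and from each other. In shPRRC2B total RNA INSIG1 (50.0 ± 3.89) overlapped with FDFT1 (48.6 ± 3.04), while IDI1 (26.2 ± 2.15) and HMGCS1 (14.8 ± 0.44) again came last. In polysome RNA FDPS led in shCtrl cells (79.3 ± 2.70) with no overlap, and in shPRRC2B cells FDPS (68.9 ± 12.9) and IDI1 (67.9 ± 9.13) overlapped at the top. At the low end of shPRRC2B polysome RNA SQLE (7.97 ± 0.85) and SREBF2 (6.79 ± 1.64) overlapped, and HMGCS1 was at 1.19 ± 0.38.

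Outside the 8 genes, the gene whose log2 CPM followed each most closely over the 12 libraries was NUAK1 for HMGCS1 (Pearson r = 0.997), FOXF2 for IDI1 (0.978), NT5M for FDPS (0.985), RP11-395I14.2 for FDFT1 (0.934), SDC3 for SQLE (0.996), TMEM245 for DHCR7 (0.988), SLC7A1 for SREBF2 (0.999) and LTBP4 for INSIG1 (0.975). The points share fraction and line, and most of the variation is between fractions. Among the 8 genes, SREBF2 and DHCR7 were the pair most alike (r = 0.984), whereas IDI1 and SREBF2 ran in opposite directions (r = -0.88).

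Of 39 further genes of cholesterol and fatty acid metabolism, 39 were tested. In TE 2 were called higher and 10 lower, against 10.7% and 16.4% of all genes tested. In total RNA 9 were called higher and 7 lower, against 14.9% and 14.1%, and in polysome RNA 3 higher and 12 lower, against 18.4% and 21.4%. The median TE change of the 39 was -0.21 on the log2 scale and that of all genes -0.03. Without both replicate 1 polysome libraries the TE calls of the 11 genes named below stayed, at changes from -2.49 for SOAT1 to 1.33 for NR1H2. More of all genes were called in TE in that setting.

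Among 13 other enzymes of sterol synthesis, 1 fell in TE and the other 12 were not called. SC5D, a sterol desaturase, fell by 0.59 on the log2 scale in TE (adjusted p = 0.023), but was at 0.01 with the length trend removed and was no longer called with library totals (-0.52) or without shCtrl total replicate 1 (-0.58) or 2 (-0.56) or shPRRC2B total replicate 3 (-0.58). PMVK, the phosphomevalonate kinase, rose in polysome RNA (log2 0.75 ± 0.16, adjusted p = 0.00106), a call lost with the length trend removed (0.48). Its TE change of 0.56 was not called (adjusted p = 0.0749), but was called when replicate 3 of shCtrl total RNA (0.70) or replicate 2 of shCtrl polysome RNA (0.66) was left out, with TMM within each fraction (0.62), with at least 10 counts in every library (0.63), and with a replicate block (0.55) or a culture block (0.54). NSDHL, a sterol dehydrogenase, fell in polysome RNA from 45.9 ± 3.32 to 30.0 ± 3.78 CPM (log2 -0.62 ± 0.14, adjusted p = 0.00198), and its TE change of -0.43 (adjusted p = 0.12) was called lower with the length trend removed (-0.60). HSD17B7, a sterol ketoreductase, fell in total RNA from 21.9 ± 2.40 to 14.5 ± 0.27 CPM (log2 -0.59 ± 0.14, adjusted p = 0.00319) and stayed called in every alternative run for total RNA. Its polysome change of -0.35 (adjusted p = 0.0512) was called lower with the length trend removed (-0.57) and without shCtrl polysome replicate 3 (-0.51).

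Of the 5 other genes of SREBP processing, MBTPS2, the site-2 protease, fell by 1.55 on the log2 scale in TE (SE 0.23, adjusted p = 0.000161). INSIG2 rose by 0.69 in TE (SE 0.22, adjusted p = 0.024), where polysome RNA was at 43.3 ± 8.72 and 43.1 ± 4.62 CPM and total RNA fell from 23.7 ± 0.40 to 14.6 ± 1.51 CPM. The INSIG2 call was lost, at changes of 0.53 to 0.70, when polysome replicate 2 or 3 of either line, shPRRC2B total replicate 3 or any shCtrl total library was left out, and with all genes of at least 1 count tested (0.64). SCAP, the escort protein, fell in total RNA (-0.75 ± 0.13, adjusted p = 0.000322) and in polysome RNA (-1.14 ± 0.13, adjusted p = 3.72e-06), with a TE change of -0.39 (adjusted p = 0.126) that was called only without shPRRC2B polysome replicate 2 (-0.55). SREBF1, the paralogue of SREBF2 that drives fatty acid synthesis, fell in polysome RNA alone (-0.64 ± 0.19, adjusted p = 0.0118), a call lost with the length trend removed (-0.33) and in a fit of the polysome libraries alone (-0.65). Its TE change, -0.43 (adjusted p = 0.23), was called lower without shCtrl polysome replicate 1 (-0.64) and without both replicate 1 polysome libraries (-0.60). MBTPS1, the other protease gene, rose in total RNA (0.85 ± 0.14, adjusted p = 0.00015) and in polysome RNA (0.79 ± 0.14, adjusted p = 0.000168). Its TE change of -0.06 was not called. In total RNA 1 of these 5 genes was thus called higher and 2 lower, against 14.9% and 14.1% of all genes tested.

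Of 7 genes of sterol uptake and trafficking, 3 fell in TE (16.4% of all genes) and 3 rose in total RNA (14.9%). In both cases they were SOAT1, LIPA and NPC1, which esterify cholesterol, free it from lysosomal esters and export it from lysosomes. Their TE changes were -2.05 ± 0.28, -1.36 ± 0.24 and -1.26 ± 0.20 (adjusted p = 8.92e-05, 0.000635 and 0.00029). Their total RNA changes were 0.51, 0.63 and 0.87 (adjusted p = 0.0389, 0.00718 and 0.000147). TE is taken relative to total RNA, so these values share the total libraries. In polysome RNA SOAT1 (-1.54) and LIPA (-0.73) were called lower, and NPC1 was at -0.40, called only without replicate 1 of shCtrl (-0.60), shPRRC2B (-0.59) or both (-0.69), or without shPRRC2B polysome replicate 3 (-0.52). The total RNA call of SOAT1 was lost whichever library was left out, down to 0.43 without shCtrl total replicate 1, and with the length trend removed (0.34), among other settings.

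Of 5 genes of sterol efflux, NR1H2, the liver X receptor beta, rose by 1.05 on the log2 scale in TE (SE 0.23, adjusted p = 0.00306), with total RNA falling from 41.5 ± 4.16 to 15.0 ± 0.67 CPM. Its polysome RNA was lower too, at 70.4 ± 18.4 CPM in shCtrl and 52.4 ± 6.35 CPM in shPRRC2B (log2 -0.43, adjusted p = 0.0399, not called). It was called lower with the length trend removed (-0.53), with all genes of at least 1 count (-0.52) and without polysome replicate 2 or 3 of either line (-0.55 to -0.67). APOE, an apolipoprotein, fell in total RNA (-2.36 ± 0.18, adjusted p = 5.46e-08) and in polysome RNA (-2.65 ± 0.18, adjusted p = 8.64e-09). ABCG1, a sterol transporter, fell in total RNA (-1.37 ± 0.38) and in polysome RNA (-2.31 ± 0.45), with group means of 5.72 and 5.96 CPM in shCtrl total and polysome RNA and a widest spread of 2.50 to 10.3 CPM in shCtrl polysome RNA. Its total RNA change was no longer called without shPRRC2B total replicate 1 (-1.25). NR1H3, the liver X receptor alpha, rose in both (0.74 ± 0.16 and 1.33 ± 0.16), with TE at 0.59 (adjusted p = 0.0598), which was called with DESeq2 (0.57), with limma (0.63), with TMM within each fraction (0.65), with at least 10 counts in every library (0.66), and without replicate 1 of the shCtrl polysome libraries (0.64) or of both lines (0.57).

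Of 9 genes of fatty acid synthesis, 5 fell in TE, against 16.4% of all genes, and the other 4 were not called. SCD, the stearoyl-CoA desaturase, fell by 1.55 on the log2 scale (SE 0.36, adjusted p = 0.00424), and its polysome RNA was at 104 ± 49.7 CPM in shCtrl and 32.0 ± 3.75 CPM in shPRRC2B. FASN, the fatty acid synthase, fell by 1.30 (SE 0.20, adjusted p = 0.00018), with total RNA rising from 672 ± 36.1 to 1087 ± 31.8 CPM. ELOVL6, an elongase, fell by 0.94 (adjusted p = 0.00168) and ACLY, which supplies acetyl-CoA, by 0.75 (adjusted p = 0.00627). With the length trend removed, ELOVL6 (-0.35) and ACLY (-0.43) were no longer called, while SCD (-1.10) and FASN (-0.60) were. The FASN calls in total RNA (0.499) and polysome RNA (-0.10) were lost in that setting.

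**Figure D4:**
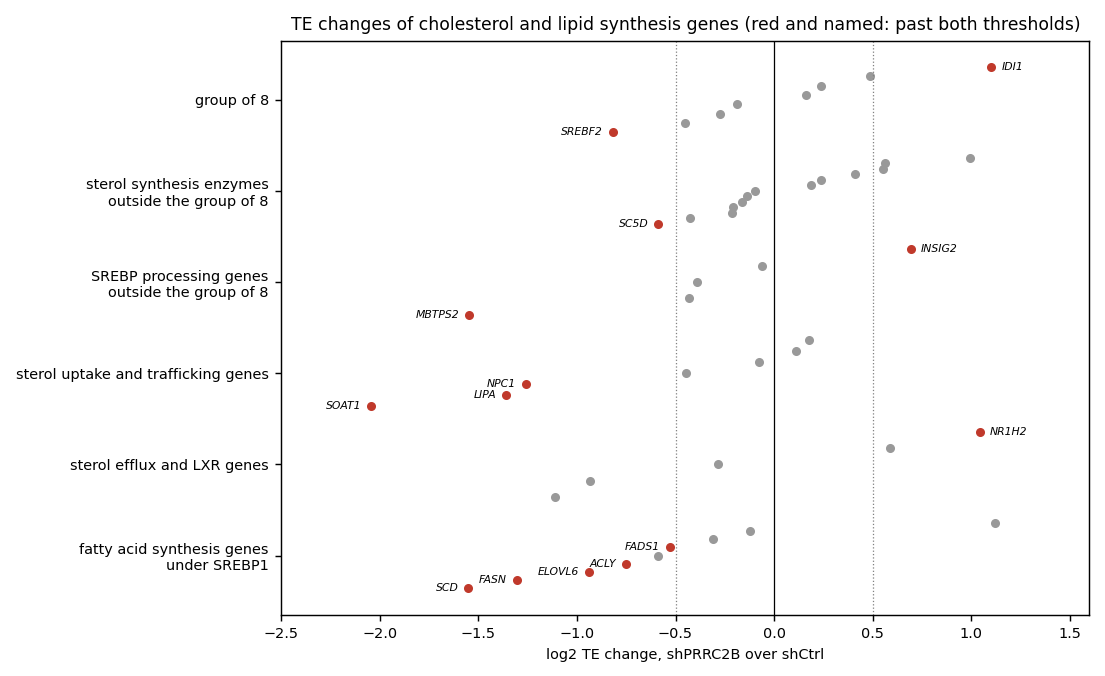
Log2 TE change (shPRRC2B over shCtrl) of the 8 genes and of the other 39 genes by list, 1 point per gene, with dotted lines at -0.5 and 0.5. Genes past both thresholds are red and named, 11 of them to the left of 0 and 3 to the right.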

How the data were processed

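The authors deposited 1 table of raw counts of read pairs per gene name, without normalization, for 12 libraries, 3 for each of 4 groups of line and fraction. Per the methods and the submitters' processing notes, Trimmomatic 0.36 trimmed the reads, HISAT2 (2.1.0 in the notes, another release in the methods) aligned them to GRCh38, and featureCounts of Subread 2.0.1 assigned them to GENCODE 38, with no strand option given. The table held 0 further columns of values. Groups came from the sample titles.

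The test was that of edgeR 4.0.16 in R 4.3.3 (filterByExpr, minimum count 10; TMM over all libraries; glmQLFit and glmQLFTest on the 4 groups, no block), with p-values adjusted over the 18166 genes tested. The TE change was the difference between the lines in the log2 polysome-to-total ratio. Standard errors were derived from the F statistic. Calls needed a log2 change beyond 0.5 at an adjusted p under 0.05, the thresholds of the study. CPM values were scaled by TMM. Totals of 9855734 to 20837542 counts limit the precision, and each error is an SD (n = 3) or a fitted standard error.

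The genes, lists and motifs were chosen with earlier results of these data known. The text names all 8 genes, PRRC2B, up to 4 called genes per list by size of TE change, and for each gene the most correlated one; 4 genes of the lists are not reported here, and counts over the lists leave them out. Positions and lengths were those of canonical GENCODE 44 transcripts on GRCh38, and promoters those of RefSeq (GRCh38.p14). Alternatives were DESeq2 1.42.0, limma 3.58.1 on log2(CPM + 1), other scalings and filters, blocks, removal of the length trend (lowess, span 0.3), and libraries left out. The code was tested on simulated data.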

Additional observations from a re-analysis of the deposited data

Results flagged for a closer look

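For 2 of the 8 genes the polysome-to-total ratio differed between the 2 lines. This is the TE test given above (edgeR's quasi-likelihood test, Benjamini-Hochberg adjusted over all genes). The log2 difference between the lines was 1.10 for IDI1 (adjusted p = 0.00172) and -0.82 for SREBF2 (adjusted p = 0.0336). The SREBF2 call was lost in alternatives given above. Over all genes tested, TE was called higher for 10.7% and lower for 16.4%, so 1 of 8 in each direction lies near the background.

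The same test passed for 11 of the further genes named, though the calls of SC5D, INSIG2, ELOVL6 and ACLY were lost in alternatives given above. The log2 differences were -0.59 for SC5D among the enzymes, and -1.55 for MBTPS2 and 0.69 for INSIG2 in SREBP processing. They were -2.05 for SOAT1, -1.36 for LIPA and -1.26 for NPC1 in trafficking, 1.05 for NR1H2 in efflux, and -1.55 for SCD, -1.30 for FASN, -0.94 for ELOVL6 and -0.75 for ACLY in fatty acid synthesis. Most genes were named from those already called, by size of TE change, so the count of 11 follows largely from that choice. Of all 39 further genes, 2 were called higher and 10 lower in TE, against 10.7% and 16.4% of all genes tested. Groups of 3 libraries are too small for a test of outlying samples.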

How the results depend on the processing

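Among the 8 genes, 546 of 576 values under the alternatives kept direction and side of the threshold, 11 lost a call, 15 gained one and 4 changed direction. The number of genes called higher in TE was 2 with both replicate 1 polysome libraries left out, and 1 to 2 with 1 library left out. The number called lower in TE was 0 with the length trend removed, alone or with the replicate block, and 0 to 2 with 1 library left out. The number called lower in total RNA was 2 with library totals and 1 to 2 with 1 library left out, and in polysome RNA 2 to 4 with 1 library left out. Removing the length trend left 15638 genes to test and moved the share of TE calls that were higher from 39.4% to 50.0% (49.96%, 50.3% with the replicate block); the cause was not tested.

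Directions changed in the following cases, among which the SC5D TE change and the FDPS ratios had been past the thresholds. With the length trend removed, without and with the replicate block, TE changes were 0.18 and 0.17 for HMGCS1, -0.023 and -0.028 for FDPS and 0.012 and 0.016 for SC5D, and polysome changes were 0.24 and 0.25 for SC5D, 0.34 and 0.35 for ELOVL6 and 0.11 and 0.12 for INSIG2. The INSIG2 polysome change was also 0.013 with TMM within each fraction, 0.039 with at least 10 counts in every library, 0.0082 with limma, 0.0015 with the replicate block and 0.16 without both replicate 1 polysome libraries, and with 1 library left out it lay between -0.22 and 0.080. The FDPS log2 ratio in shCtrl and shPRRC2B cells was -0.46 and -0.18 with library totals, -0.47 and -0.17 with TMM within each fraction and -0.73 and -0.75 with the length trend removed. That of IDI1 in shCtrl cells, 0.27 and not past the thresholds, was -0.73 with library totals and -0.74 with TMM within each fraction.

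Same-numbered libraries of different groups showed no shared deviation from their group means. Of 18 such pairs, 0 correlated above 0.1 (-0.06 to 0.05) and 7 correlated best with their own number. With 3 libraries per group, this cannot show whether same-numbered libraries came from the same culture. With the replicate block the TE changes were 1.11 for IDI1 and -0.81 for SREBF2, no call of the 8 genes changed, and 1812 genes were called higher and 2807 lower in TE. Depth limits the precision for HMGCS1, with 52 to 104 counts per polysome library, and for ABCG1, with 8 to 93.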
